A study of Mus musculus with 6 samples.

Results

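De novo ceramide synthesis is described here by 10 of the 54532 genes in the deposited liver table, chosen by gene name: the SPT subunits *Sptlc1* and *Sptlc2*, the SPT regulators *Ormdl1* and *Ormdl3*, the reductase *Kdsr*, the ceramide synthases *Cers2*, *Cers4*, *Cers5* and *Cers6*, and the desaturase *Degs1*. All 10 were found and all 10 had enough reads to be tested. Ceramide is built at the endoplasmic reticulum from serine and fatty acyl-CoA, and it is the precursor of sphingomyelin and of the glycosphingolipids. Serine palmitoyltransferase (SPT) carries out the first, rate-limiting step, the reductase KDSR turns its product into dihydrosphingosine, ceramide synthases attach a second fatty acyl chain, and the desaturase DEGS1 introduces the double bond that makes ceramide. ORMDL proteins bind SPT and hold it back when ceramide is plentiful, and ceramide synthases also act on sphingosine that is recycled from lysosomes, the compartment where SPNS1, a transporter of lysophospholipids, resides.

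RNA was sequenced from the livers of 3 g*Spns1*-cKO mice (cKO) and 3 control mice, with 1 library per mouse. All mice were of the C57BL/6 strain. The cKO mice carried floxed *Spns1* alleles and a Cre-ERT2 recombinase driven from the Rosa26 locus. Tamoxifen was injected after birth, while the mice were still pups, to delete *Spns1* in the whole body. The liver was therefore not the only organ affected. The methods describe *Spns1* fl/fl littermates without Cre as controls, whereas the sample labels call the control livers wild type. Whether the controls received tamoxifen, the age of these mice at collection and their sex are not given in the sources used here. The samples were whole liver, in which fewer cells of a type and less RNA per cell cannot be told apart.

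Libraries held 30350002 to 35295611 counts, and a floor of 3 counts lay at 0.0763 to 0.119 CPM (counts relative to a library size that was scaled by TMM, a method of edgeR that sets the typical gene to no change). The TMM factors were 0.834 to 0.873 in control livers and 1.16 to 1.18 in cKO livers, and scaling by library size only would raise the log2 fold change of the median gene by 0.44. The log2 fold change of *Spns1* itself was -0.87 (standard error, SE, 0.25, edgeR adjusted p = 0.0300), with each cKO liver below each control liver. The paper describes loxP sites around exon 3 only, whereas the counts cover the whole gene. This value therefore does not measure how complete the deletion was. The hepatocyte markers *Alb* and *Apoa1* were abundant in both groups, though lower in cKO livers, with log2 fold changes of -0.73 (edgeR adjusted p = 0.0101) and -0.76 (edgeR adjusted p = 0.00997). All 12 macrophage markers were called higher. Their summed level was 190 to 309 CPM in control livers and 828 to 1192 CPM in cKO livers. Among them, *Gpnmb* had 9, 36 and 7 counts in control and 2309, 2682 and 3029 in cKO livers. Only through the cKO livers did it pass the filter on low counts that precedes the test. The part of such markers in the results that follow was not tested.

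A gene was called higher or lower in cKO livers when the adjusted p of edgeR's quasi-likelihood test, corrected over all 15449 genes tested, was under 0.05. By this rule 3 of the 10 genes were higher (*Sptlc2*, *Cers4* and *Cers5*), where 21.3% of all genes were, and 2 were lower (*Ormdl3* and *Cers2*), where 20.5% of all genes were. The 5 others were not called. Both counts are near the share of all genes called, and the median log2 fold change of the 10 genes was -0.065, against 0.014 over all genes tested. On CPM, the 3 cKO livers lay above the 3 control livers in 4 of the genes, the 3 called ones and *Cers6*, where 27.1% of all genes did. They lay below the control livers in 3 genes, *Ormdl3*, *Kdsr* and *Cers2*, where 26.9% of all genes did. The study itself drew *Cers4* and *Cers6* as raised on these same livers, so their direction here is not independent evidence.

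**Figure D1:**
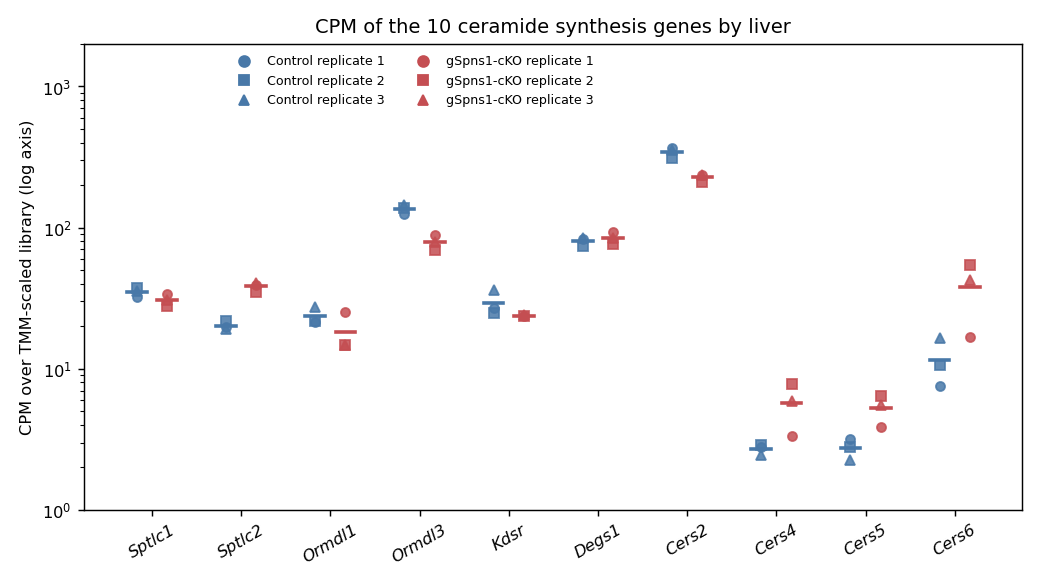
CPM (TMM-scaled, log axis) of each of the 10 genes in every liver, with points for single mice and bars for group means. The groups separate upwards in *Sptlc2*, *Cers4*, *Cers5* and *Cers6* and downwards in *Ormdl3*, *Kdsr* and *Cers2*, and they overlap in *Sptlc1*, *Ormdl1* and *Degs1*.

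The catalytic core of SPT pairs SPTLC1 with SPTLC2, which holds the cofactor of the reaction. *Sptlc2* (chromosome 12 of GRCm38, 87305058 to 87388355, minus strand) measured 19.8, 21.7 and 19.2 CPM in the controls and 39.3, 35.2 and 40.5 CPM in the cKO livers. The groups were far apart and each varied little. Its mean rose from 20.3 ± 1.26 to 38.4 ± 2.76 CPM (SD, n = 3 mice each), a log2 fold change of 0.92 (SE 0.11, edgeR adjusted p = 0.000144), and the call held with any single mouse left out. *Sptlc1* (chromosome 13, 53332748 to 53377397, minus strand) measured 32.4, 37.3 and 35.8 CPM in control and 34.0, 27.8 and 30.5 CPM in cKO livers. These values overlapped, and the log2 fold change of -0.19 (95% interval -0.45 to 0.056, edgeR adjusted p = 0.193) was not called and turned positive when libraries were scaled by size only. The partners of the enzyme core thus differed unequally.

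That difference is also seen within each library, where it does not depend on scaling. The ratio of *Sptlc1* to *Sptlc2* on FPKM (the deposited values, which are corrected for gene length) was 3.73, 3.93 and 4.25 in the controls and 1.97, 1.80 and 1.72 in the cKO livers. *Sptlc1* thus exceeded *Sptlc2* in every liver, by less in each cKO liver than in any control liver. The log2 ratio was lower by 1.12 (log2 difference -1.12, SE 0.080). A two-sided exact permutation test gave p = 0.1, the smallest that 3 mice against 3 allow, and 0.117 after adjustment over the 7 ratios computed.

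*Ormdl3*, the ORMDL gene with the highest FPKM in these livers, was lower. It (chromosome 11, 98581256 to 98587368, minus strand) measured 124, 138 and 146 CPM in the controls and 88.1, 69.7 and 78.5 CPM in the cKO livers. Every cKO liver was below every control liver. The mean went from 136 ± 10.7 to 78.8 ± 9.22 CPM (SD, n = 3), with a log2 fold change of -0.79 (SE 0.12, edgeR adjusted p = 0.000723), and the gene was also called lower when libraries were scaled by size only (-0.34, edgeR adjusted p = 0.0292). *Ormdl1* (chromosome 1, 53297095 to 53310309, plus strand), a second regulator, measured 21.4, 21.8 and 27.3 CPM in control livers. In the cKO livers it measured 25.3, 14.8 and 14.7 CPM, so that replicate 1 lay within the control range and the other two below it. Its log2 fold change of -0.37 (95% interval -0.87 to 0.14, edgeR adjusted p = 0.219) was not called, and without cKO replicate 1 it was -0.68 (edgeR adjusted p = 0.0036). Scaled by library size only, *Ormdl1* turned to 0.079. The ratio of *Ormdl3* to *Ormdl1* overlapped between groups, at 12.5, 13.6 and 11.5 in control and 7.52, 10.2 and 11.6 in cKO livers (two-sided exact permutation p = 0.2).

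The balance of enzyme subunits and regulators was set out as the summed FPKM of *Sptlc1* and *Sptlc2* over the summed FPKM of *Ormdl1* and *Ormdl3*. It was 0.188, 0.195 and 0.172 in the controls and 0.315, 0.347 and 0.347 in the cKO livers. The regulators had more transcript than the subunits in all 6 livers, by a smaller margin in each cKO liver. The log2 difference was 0.86 (SE 0.071), with an exact permutation p of 0.1 (two-sided) and 0.117 after adjustment over the 7 ratios. Leaving out any single mouse kept it between 0.81 and 0.91.

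**Figure D2:**
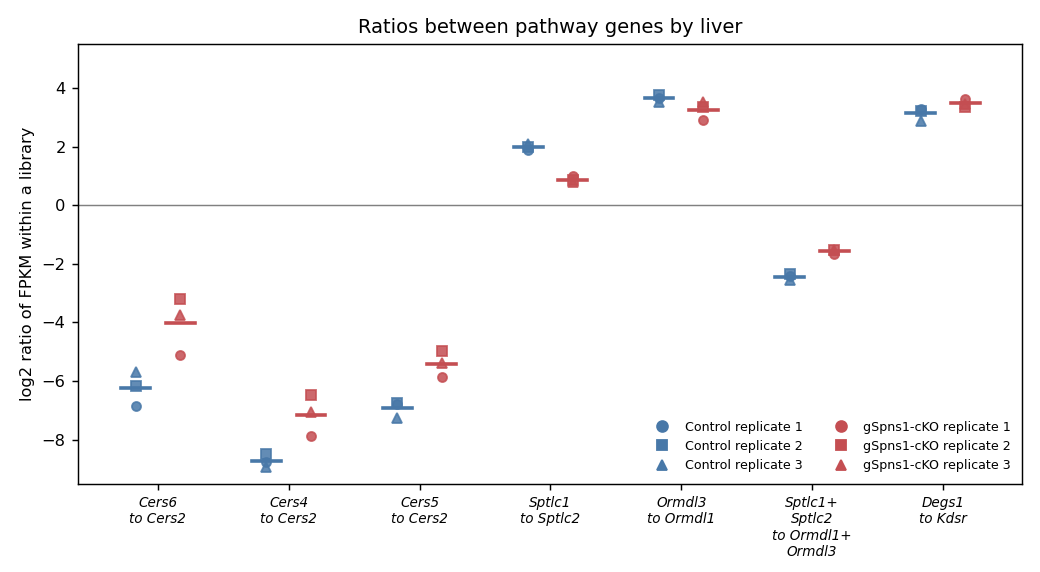
Log2 ratio of FPKM between genes of the pathway within each library (vertical axis), with points for mice and bars for group means of 3 mice. The groups do not overlap except in *Ormdl3* to *Ormdl1*; the ratio of *Sptlc1* to *Sptlc2* is lower in cKO livers and the ratios of *Cers4*, *Cers5* and *Cers6* to *Cers2* are higher.

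KDSR works between SPT and the ceramide synthases. *Kdsr* (chromosome 1, 106720459 to 106759727, minus strand) measured 26.8, 25.0 and 36.0 CPM in the controls and 23.7, 23.5 and 24.2 CPM in the cKO livers. The groups did not overlap, but control replicate 2 lay close to the cKO livers and control replicate 3 stood above the rest. The log2 fold change of -0.30 (95% interval -0.61 to 0.013, edgeR adjusted p = 0.113) was not called, and scaled by library size only it turned to 0.15. *Degs1* (chromosome 1, 182275772 to 182282804, minus strand), the last enzyme of the pathway, measured 82.9, 74.5 and 84.3 CPM in control and 92.6, 76.2 and 83.9 CPM in cKO livers. The values were interleaved. Its log2 fold change was 0.06 (95% interval -0.18 to 0.31, edgeR adjusted p = 0.677), and scaled by library size only it was called higher at 0.51 (edgeR adjusted p = 0.0028), close to the shift of the median gene under that scaling. The ratio of *Degs1* to *Kdsr* was 9.74, 9.37 and 7.37 in control and 12.3, 10.2 and 10.9 in cKO livers, a log2 difference of 0.34 (SE 0.15, two-sided exact permutation p = 0.1).

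Ceramide synthases differ in the acyl chain that they prefer. CERS2, the main ceramide synthase of the liver, uses very-long-chain acyl-CoA, CERS5 and CERS6 prefer palmitoyl-CoA, and CERS4 prefers chains of intermediate length. *Cers2* (chromosome 3, 95314791 to 95323599, plus strand) measured 365, 313 and 355 CPM in the controls and 238, 210 and 238 CPM in the cKO livers. The groups did not overlap, and the mean went from 345 ± 27.5 to 228 ± 16.2 CPM (SD, n = 3). The log2 fold change was -0.59 (SE 0.13, edgeR adjusted p = 0.00410). Of its exon bases, 2.04% overlap *Setdb1* and 3.92% overlap the antisense gene *6330562C20Rik*, both on the opposite strand. The direction did not change under library size only, but the call was lost (-0.15, edgeR adjusted p = 0.318), and it was also lost when the library size left out the 100 most abundant genes (-0.27, edgeR adjusted p = 0.0965). The hepatocyte markers moved alongside, with 6 of 11 lower and none higher (1 lower and 1 higher under library size only), and a summed level of 109430 to 124390 CPM in control and 66771 to 78016 CPM in cKO livers; their part in the level of *Cers2* was not tested.

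*Cers4*, *Cers5* and *Cers6* were higher in every cKO liver than in any control liver. *Cers6* (chromosome 2, 68861441 to 69114282, plus strand) measured 7.58, 10.6 and 16.4 CPM in the controls and 16.7, 54.5 and 42.3 CPM in the cKO livers. cKO livers spread widely, and replicate 1 lay next to control replicate 3. Its log2 fold change was the largest of the 10 genes, 1.72 (95% interval 0.31 to 3.13), as was its SE of 0.55, but with an edgeR adjusted p of 0.0595 it was not called. It passed with DESeq2 (adjusted p = 0.0115), with limma-voom (adjusted p = 0.0195), and in edgeR without cKO replicate 1 (2.07, adjusted p = 0.0059). *Cers4* (chromosome 8, 4493026 to 4531680, plus strand) was a low gene, with 78, 89 and 62 reads in control and 121, 298 and 232 reads in cKO livers. In CPM these were 2.77, 2.89 and 2.45 against 3.36, 7.77 and 5.90, and the log2 fold change was 1.07 (SE 0.29, edgeR adjusted p = 0.0137). The call was lost without control replicate 3 (edgeR adjusted p = 0.0571) and without cKO replicate 2 (edgeR adjusted p = 0.0529). *Cers5* (chromosome 15, 99734881 to 99772885, minus strand), also low, measured 3.20, 2.79 and 2.25 CPM in control and 3.89, 6.39 and 5.52 CPM in cKO livers. Its log2 fold change was 0.94 (SE 0.24, edgeR adjusted p = 0.0108), and it was called with any single mouse left out.

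*Cers4*, *Cers5* and *Cers6* were all lowest among cKO livers in replicate 1 and highest in replicate 2. Among cKO livers, the summed macrophage (1192 CPM), stellate cell (272 CPM) and endothelial markers (249 CPM) were highest in replicate 1. Summed cholangiocyte (280 CPM), lymphocyte (6.59 CPM), neutrophil (15.3 CPM) and hepatocyte markers (78016 CPM) were highest in replicate 2, and erythroid markers (166 CPM) in replicate 3. Single markers did not all follow the sum of their list. Of the hepatocyte markers, *Alb* was highest in replicate 3 (45100 CPM) and *Apoa1* in replicate 2 (11650 CPM). Of the neutrophil markers, *S100a9* was highest in replicate 3 (5.19 CPM) and *Csf3r* in replicate 2 (6.07 CPM). *Spp1* gave 248 of the 280 CPM of the cholangiocyte sum. Beside the macrophage markers, markers of further cell types were also higher in cKO livers than in control livers. All 6 cholangiocyte markers were called higher (summed 44.2 to 62.9 CPM in control and 172 to 280 CPM in cKO livers), as were 6 of 8 stellate cell markers (91.1 to 123 against 189 to 272 CPM) and 5 of 6 endothelial markers (137 to 153 against 202 to 249 CPM). Lymphocyte markers were at 2.53 to 3.63 against 4.83 to 6.59 CPM, with 1 of 7 called, and all 4 neutrophil markers that could be tested were called higher (3.09 to 5.16 against 9.62 to 15.3 CPM), while *Ly6g* and *Mpo* had at most 4 counts in any library. *Cldn4*, of the cholangiocyte list, had 0, 1 and 0 counts in control and 27, 48 and 55 in cKO livers. *Retnlg*, of the neutrophil list, had 3, 12 and 3 counts in control and 28, 39 and 55 in cKO livers. *Nkg7*, the lymphocyte marker that was called, had 17, 20 and 3 counts in control and 64, 57 and 59 in cKO livers. *Cldn4*, *Retnlg* and *Nkg7* passed the filter on low counts only through the cKO livers. Of 3 erythroid markers tested, 2 were higher and 1 was lower (126 to 145 against 74.2 to 166 CPM). Their part in the levels of the ceramide synthases was not tested.

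**Figure D3:**
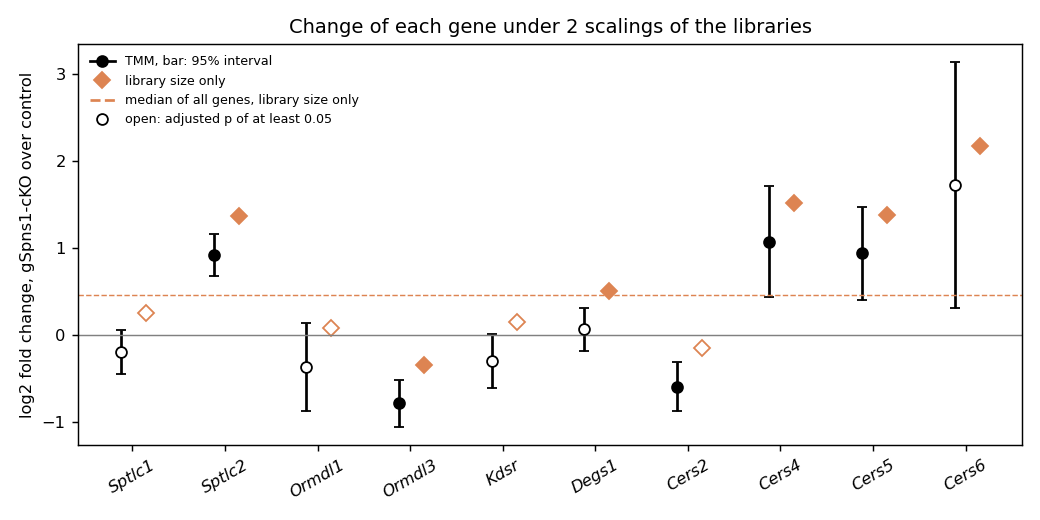
Log2 fold change of each gene in cKO against control livers (vertical axis) from edgeR, with circles and 95% intervals for TMM scaling, diamonds for library size only, open symbols for genes not called, and a dashed line at the median of all genes under library size only. *Sptlc2*, *Cers4*, *Cers5* and *Cers6* lie above 0 and *Ormdl3* and *Cers2* below it under both scalings, whereas *Sptlc1*, *Ormdl1* and *Kdsr* change side.

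Set against each other within a library, the synthases gave a shift in their mix. *Cers2* made up 98.0%, 97.5% and 97.3% of the summed FPKM of the 4 synthases in the controls and 95.2%, 86.9% and 90.5% in the cKO livers. It remained by far the most abundant synthase transcript in all 6 livers. *Cers6* made up 0.842%, 1.36% and 1.86% in control and 2.77%, 9.36% and 6.66% in cKO livers, a difference of 4.91 percentage points (10.3 on counts, without the correction for gene length). The mean share of *Cers5* was 0.811% ± 0.148 in control and 2.18% ± 0.565 in cKO livers, and that of *Cers4* 0.231% ± 0.0349 and 0.681% ± 0.281 (SD, n = 3). None of the 4 shares overlapped between groups, and each had an exact permutation p of 0.1 (two-sided), also after adjustment over the 4 shares. The 4 shares add up to a whole and come from the values of the single genes, so they are not separate evidence. The summed FPKM of the 4 synthases was 99.6, 87.2 and 98.9 in control and 67.0, 64.4 and 70.7 in cKO livers, and this sum, unlike the shares, depends on the scaling of the libraries.

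**Figure D4:**
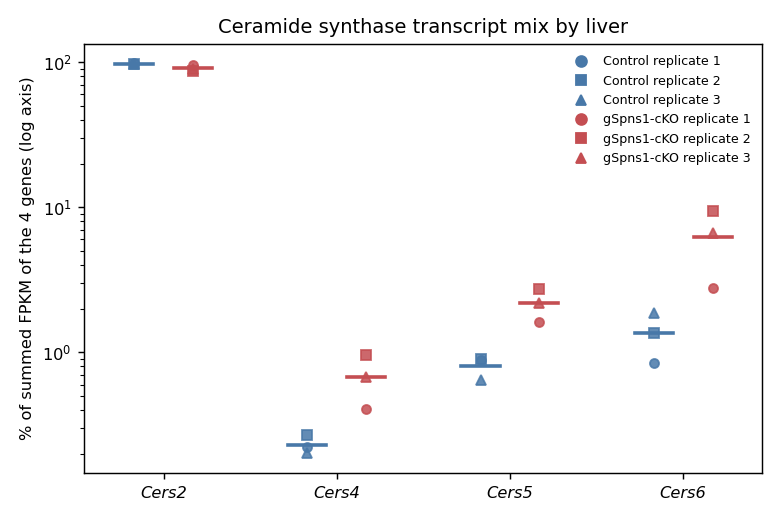
Share of the summed FPKM of *Cers2*, *Cers4*, *Cers5* and *Cers6* held by each synthase (percent, log axis) in each of the 6 livers, with bars for group means. *Cers2* holds at least 97.3% in control livers and between 86.9% and 95.2% in cKO livers, and the share of *Cers6* is largest in cKO replicate 2.

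Expressed relative to *Cers2* in the same library, *Cers6* was higher by 2.22 on the log2 scale (SE 0.65), *Cers4* by 1.58 (SE 0.42) and *Cers5* by 1.52 (SE 0.30). The groups did not overlap in any of these ratios, which had an exact permutation p of 0.1 (two-sided) and 0.117 after adjustment over the 7 ratios. This separation followed from the single genes, with *Cers2* lower and *Cers4*, *Cers5* and *Cers6* higher in each cKO liver, and is not separate evidence. When single mice were left out, the difference for *Cers6* to *Cers2* stayed between 1.81 and 2.76.

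Ordered by FPKM, the control livers had *Cers2* highest (mean 93.0), followed by *Ormdl3* (61.7), *Degs1* (30.9), *Sptlc1* (9.82), *Ormdl1* (4.95), *Kdsr* (3.56) and *Sptlc2* (2.48). The palmitoyl synthases *Cers6* (1.29) and *Cers5* (0.769) came next, with overlapping values, and *Cers4* (0.219) was last. In cKO livers *Cers2* (61.2) still led, the values of *Ormdl3* (35.6) and *Degs1* (32.1) overlapped, and *Sptlc1* followed at 8.53. *Sptlc2* (4.66) and *Cers6* (4.20) had higher means than *Ormdl1* (3.82) and *Kdsr* (2.88). The values of *Cers6* overlapped those of *Sptlc2*, *Ormdl1* and *Kdsr*, and those of *Sptlc2* overlapped *Ormdl1*. In cKO replicate 1, *Sptlc2* (4.78) was below *Ormdl1* (5.30) and *Cers6* (1.86) below *Kdsr* (2.88). *Cers5* (1.47) and *Cers4* (0.456) remained lowest.

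The E-box, spelled CACGTG, is the sequence read by several basic helix-loop-helix factors of lysosomal and lipid genes, and the CRE, spelled TGACGTCA, is read by CREB and ATF factors. The 250 bases before the RefSeq start sites (GRCm38.p6) of the 10 genes were searched on both strands for these and for TGATGNAA and TCACNCCAC, which ATF4 with its partners and sterol-response factors read. The motifs were chosen after the values were seen. An E-box was found before *Cers2*, *Cers6* and *Degs1*, and 6.02% of all 32851 mouse promoters hold one, while the CRE, held by 1.55%, was found before *Ormdl3*. TGATGNAA (3.45% of promoters) and TCACNCCAC (1.05%) were found before none of the 10. The sites are shown because they stand before genes whose calls differ, on the strand of the gene and with the motif in capitals:
Cers2: cgccctgcggggCACGTGccacccgccccg
Cers6: cggccaggctgcCACGTGacaggcgaggcg
Degs1: gggagcctcaatCACGTGgtccagtcagct
Ormdl3: gcgcgtggtagTGACGTCAccgccccggct
These are chr3:95315049-95315078 on the plus strand (*Cers2*), chr2:68861407-68861436 on the plus strand (*Cers6*), chr1:182282221-182282250 on the minus strand (*Degs1*) and chr11:98587255-98587284 on the minus strand (*Ormdl3*). The start sites of *Cers2*, *Degs1* and *Ormdl3* lie 399, 609 and 123 bases inside the gene as the table bounds it, and that of *Cers6* lies at its upstream end. The motif lies 129, 22, 43 and 28 bases before the start site of *Cers2*, *Cers6*, *Degs1* and *Ormdl3*. The 3 genes with an E-box comprised 1 that was lower, *Cers2*, and 2 that were not called, *Cers6* and *Degs1*. A match of letters is not evidence that a factor binds there.

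Of the other 7 genes of the pathway, 2 could be tested. *Sptssa*, a small subunit that raises the activity of SPT, measured 56.8, 56.4 and 65.1 CPM in control and 70.1, 80.2 and 72.0 CPM in cKO livers, and rose with a log2 fold change of 0.32 (SE 0.11, edgeR adjusted p = 0.0370). *Ormdl2*, the remaining ORMDL gene, measured 13.8, 18.7 and 14.9 CPM in control and 13.5, 8.29 and 10.4 CPM in cKO livers, and was called lower at -0.56 (SE 0.19, edgeR adjusted p = 0.0376), a call that was lost under library size only (-0.12, edgeR adjusted p = 0.62). Its value is uncertain, because 66.7% of its exon bases overlap *Dnajc14* on the opposite strand and whether counting used strand is not given in the sources used here. *Sptlc3*, *Sptssb* and *Cers3* had at most 3 counts in any library. *Degs2* had 4, 0 and 1 counts in control and 11, 23 and 3 in cKO livers. *Cers1*, which shares 42.5% of its exon bases with *Gdf1*, had 0, 3 and 0 against 2, 8 and 15 counts. These 5 genes were too low to be tested.

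Around the pathway, genes that supply its substrates and those that use its product were counted in the same way, beside the 21.3% of all genes that were higher and the 20.5% that were lower. Of 5 genes for serine supply, 2 were higher and 1 was lower (median log2 fold change 0.19). Under library size only, 3 were higher and 0 lower, with a median of 0.63. Of the 2 higher genes, *Phgdh* had 6, 6 and 1 counts in control and 14, 14 and 35 in cKO livers. It passed the filter on low counts only through the cKO livers, so it could not have been called lower. *Psat1*, an enzyme of serine synthesis, had 28, 13 and 9 counts in control and 72, 54 and 188 in cKO livers (log2 fold change 2.20, SE 0.56). With control replicate 3 under the filter, it also passed only through the cKO livers, so its call is not evidence of a direction. *Shmt2*, which converts serine to glycine in mitochondria, fell with a log2 fold change of -0.60 (SE 0.13, edgeR adjusted p = 0.00443), and was not called under library size only (-0.16, edgeR adjusted p = 0.322).

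Of 18 genes tested for acyl-CoA supply, 3 were higher and 7 lower, with a median log2 fold change of -0.20; under library size only 3 were higher and 3 lower, with a median of 0.24. *Elovl3*, an elongase of saturated very long chains, went from 4150, 1777 and 2043 counts in control to 59, 5 and 4 counts in cKO livers (-7.29, SE 1.07, edgeR adjusted p = 0.00766). *Elovl7* had 2, 3 and 3 counts in control and 108, 115 and 159 in cKO livers, a ratio of 35.4 with a 95% counting interval of 17.8 to 82.5. Its control counts were at or under the floor, so it passed the filter on low counts only through the cKO livers and had to differ. *Dbi*, which encodes the acyl-CoA-binding protein, and *Acsl1*, the main acyl-CoA synthetase of the liver, fell with log2 fold changes of -1.23 (edgeR adjusted p = 0.00206) and -1.12 (edgeR adjusted p = 0.000355). *Acaca*, which makes malonyl-CoA, and *Acsl4*, a synthetase for polyunsaturated chains, rose with 1.13 (edgeR adjusted p = 0.0378) and 0.37 (edgeR adjusted p = 0.0359).

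Downstream, 9 of 16 tested genes for the use and release of ceramide were higher and 2 lower, with a median log2 fold change of 0.40. Under library size only, 13 were higher and 0 lower, with a median of 0.85. Of the 9 higher genes, *Ugt8a* had 5, 2 and 2 counts in control and 18, 29 and 24 in cKO livers. It passed the filter on low counts only through the cKO livers, so it could not have been called lower. *Cerk*, the kinase that makes ceramide 1-phosphate, measured 4.16, 4.45 and 3.56 CPM in control and 14.4, 18.2 and 12.9 CPM in cKO livers (1.90, edgeR adjusted p = 3.75e-05). *Smpd3*, a neutral sphingomyelinase, and *Acer2*, a ceramidase of the Golgi, rose with 1.70 (edgeR adjusted p = 0.00079) and 1.07 (edgeR adjusted p = 0.00159). For *Smpd3*, 4.72% of the exon bases overlap *Prmt7* on the opposite strand. The study drew *Cerk*, *Smpd3* and *Acer2* as raised on these same livers, so that their count is not independent evidence of a direction. *Smpd1*, the lysosomal acid sphingomyelinase, and *Sgms2*, a sphingomyelin synthase, fell with -0.46 (edgeR adjusted p = 0.00958) and -0.40 (edgeR adjusted p = 0.0229). Neither was called under library size only, where *Smpd1* was at -0.016 and *Sgms2* turned to 0.044.

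**Figure D5:**
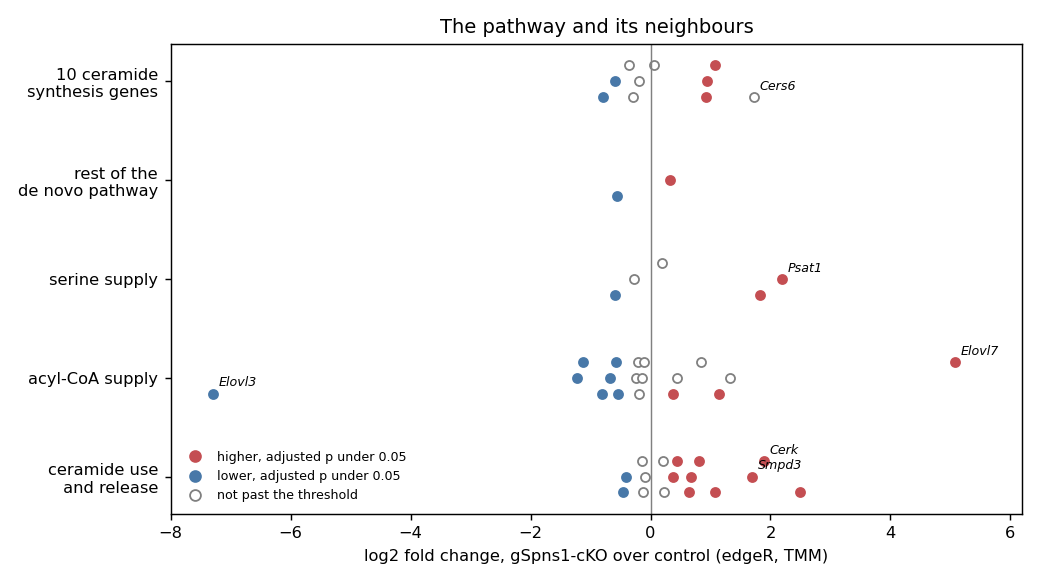
Log2 fold change (horizontal axis) of every tested gene of the pathway and of the lists for serine supply, acyl-CoA supply, and ceramide use and release, 1 row per list, with called genes filled. Acyl-CoA supply spans the widest range, from *Elovl3* at -7.29 to *Elovl7*, and 9 of the 16 genes for ceramide use and release are called higher. *Phgdh*, *Psat1*, *Elovl7* and *Ugt8a* passed the filter on low counts only through the cKO livers.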

How the data were processed

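RNA-Seq of whole liver was analysed for 3 g*Spns1*-cKO and 3 control mice, grouped by the sample labels. The authors deposited raw counts of reads on each gene, 1 column per mouse, made with fastp, HISAT2 2.0.5 and featureCounts 1.5.0-p3 on mm10 per the submitters' processing notes, whose strand setting is not given in the sources used here. FPKM values were deposited as well; their library total, recomputed from counts and gene length, was 0.837 to 0.880 times the summed counts in control and 1.17 to 1.20 times in g*Spns1*-cKO livers. The deposited table further holds a signal (mean normalised count) per group and the log2 fold change and p-value of the authors' own comparison, which were not used.

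Counts were tested in R 4.3.3 with edgeR 4.0.16 (filterByExpr, TMM, robust quasi-likelihood, Benjamini-Hochberg over 15449 genes, threshold 0.05). CPM were computed with the TMM-scaled library sizes. Ratios and shares used FPKM within a library and two-sided exact permutation tests. The members, gene lists and motifs were chosen with earlier results of these data known. The text names the 10 members, *Spns1*, the other 7 pathway genes, and up to 3 called genes per direction of each supply or use list with a mean of at least 1 CPM. It also names at most 2 abundant markers per cell type. *Ly6g*, *Mpo*, *Phgdh*, *Ugt8a*, *Cldn4*, *Retnlg*, *Nkg7* and *Gpnmb* are named for their low counts, chosen after their values were seen. *Dnajc14*, *Gdf1* and others are named for their overlap. The hepatocyte list had 12 symbols, of which 11 were found. Positions are those of the table (GRCm38); 98.3% of the 54409 genes found in GENCODE M21 had the same coordinates there.

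Nothing states that the mice came from separate litters, so p-values measure the spread between these mice. Libraries of a group differed by more than sampling noise and each was counted as 1 replicate. The counting interval of *Elovl7* and the floor of 3 counts cover counting error only. The intervals on log2 fold changes were computed from the SE of the edgeR fit, which also includes the spread between these mice. Alternatives were 3 other scalings within edgeR and the library size without the 100 most abundant genes, DESeq2 1.42.0, limma-voom and limma 3.58.1 on log2(FPKM + 0.1) and log2(FPKM + 1). They also included 2 other filters on low counts, protein-coding genes only, 2 stricter thresholds, a replicate block and leaving out each of the 6 mice.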

Additional observations from a re-analysis of the deposited data

How the results depend on the processing

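Over 20 other settings, 170 of the 200 log2 fold changes of the 10 genes kept direction and call, 12 gained a call, 12 lost one and 6 reversed. All 56 ratios and 32 shares recomputed kept their direction. On counts in place of FPKM, the difference in share was -12.7 points for *Cers2* (-6.73 on FPKM), 10.3 for *Cers6* (4.91), 1.28 for *Cers4* (0.45) and 1.13 for *Cers5* (1.37). Scaled by library size only, *Sptlc1* was 0.25, *Kdsr* 0.15 and *Ormdl1* 0.079; without the 100 most abundant genes in the library size, *Sptlc1* was 0.13 and *Kdsr* 0.034. *Degs1* ranged from -0.012 (without g*Spns1*-cKO replicate 1) to 0.13 with 1 mouse left out. Both of these scalings gave 5 of the 10 genes higher and 1 lower, and called 7289 genes higher and 970 lower (88.3% higher, against 50.9% as reported) and 5979 and 1303 (82.1%) over all genes. Upper-quartile scaling gave 4111 and 2240 (64.7%). An adjusted p under 0.01 called 3890 genes, with 1 of the 10 higher, and a further limit of 2-fold at 0.05 called 2769 genes (70.5% higher), with 1 of the 10 higher and 0 lower. With 1 mouse left out, 2 to 4 of the 10 were higher and 2 to 3 lower. *Cers4* was not called on FPKM by limma (adjusted p = 0.0506 with a pseudocount of 0.1 and 0.0555 with 1), where *Cers6* was (adjusted p = 0.0288 and 0.0335). *Ormdl1* was called lower with a filter of 1 count in any library (edgeR adjusted p = 0.0288).

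With the replicate number as a block, 6100 genes were called, 3084 higher and 3016 lower, and *Cers6* joined the genes called higher (1.63, edgeR adjusted p = 0.0043), making 4 higher and 2 lower. The deviations of same-numbered mice correlated at 0.037, 0.033 and -0.028, and nothing in the labels ties the numbers to litters, so the numbers were not taken as pairs. With 3 pairs, the sign-flip test of a ratio cannot go below an exact p of 0.25. Depth limits *Cers4* and *Cers5* most, with under 100 reads in each control library, and genes at or under 3 counts in both groups cannot be compared.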
